A study of Mus musculus with 20 samples.

Results

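The comparison described here is that of a high fat diet with a normal diet, fed for 4 days, in hair follicle stem cells of mice in telogen, the resting phase of the hair cycle. The groups compared hold 6 of the 20 arrays of the study: 3 labelled HFD 4d telogen (high fat diet) and 3 labelled ND 4d telogen (normal diet). All of these mice were male and 2 months old, and the labels name neither a transgene nor a strain. The members were all genes with a RefSeq symbol and a probe that the scanner software marked as well above background on every array of either diet or both, which gave 18167 genes. Diet arrays from telogen after 3 months (3 against 3, male mice 5 months old) and from anagen, the growth phase, after 4 days (1 against 1, 2 months old) show what the same genes did elsewhere. The spread behind every standard error and p was estimated over 15 telogen arrays in 1 fit: these 6, the 6 of the 3-month diets, and 3 labelled Aged telogen from male mice 24 months old. Whether the replicates came from separate animals is not stated in the labels, so p-values reflect only how far these samples spread, which may be technical. How the cells were isolated and at what time of day are not given in the sources used here.

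Hair follicle stem cells sit in the bulge, a niche below the sebaceous gland, where they stay quiet through telogen and are called on to rebuild the lower follicle at the next anagen. The transcription factors Sox9, Lhx2 and Nfatc1 help to keep them in this state, and BMP signals hold them quiescent while Wnt signals accompany activation. A diet rich in fat delivers fatty acids and cholesterol to tissues. In many cells a surplus of sterol lowers the genes of cholesterol synthesis through SREBP-2, fatty acids raise targets of the PPAR receptors, and feeding rhythm can shift the circadian clock. The question that the design poses is which of the genes of these cells differ within days of the change of diet.

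No gene passed the test. At an adjusted p below 0.05 in limma's moderated test with Benjamini-Hochberg adjustment over 18167 genes, 0 genes (0%) were called, and the smallest adjusted p was 0.165. At an unadjusted p below 0.05 there were 812 genes (4.47%), 388 with a higher mean on the high fat diet (2.14%) and 424 with a lower one (2.33%), where 908 would be reached if no gene differed. The 3 arrays of one diet lay wholly above or below the 3 of the other for 1779 genes (9.79%), of which 662 were higher (3.64%) and 1117 lower (6.15%) on the high fat diet. With 3 arrays against 3, a share about as large as this 9.79% would be reached if no gene differed. Groups without overlap are therefore no call. For the median gene the 95% interval reached 1.12 to either side of the difference, so that for a typical gene the number of arrays left differences of 1 on the log2 scale unresolved. What follows is therefore a description of levels, and "higher" or "lower" names the side on which the high fat diet arrays lay, not a called change. All levels are log2 signals relative to the 75th percentile of the array, and all differences are high fat minus normal diet on that scale, with the standard error of the fit. Of all genes tested, 55.1% had a difference below 0 and 44.9% above 0, beside which the counts of list members are to be read.

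The arrays themselves differed in 2 ways that touch these values. Between 77.09% and 83.49% of the spots were well above background on the normal diet arrays and between 68.82% and 71.47% on the high fat diet arrays, and the lowest level that the scanner software called well above background was -6.16 to -5.8 on the former and -5.24 to -4.7 on the latter. All normal diet arrays lay in row 1 of 1 slide and all high fat diet arrays in row 2 of that slide, and the effects of diet and of row cannot be told apart. Correlations across genes had a median of 0.894 between normal diet arrays, 0.915 between high fat diet arrays and 0.899 between the diets. The first principal component, 26.8% of the variance, set normal diet replicate 2 apart, and the second, 21.8%, set normal diet replicate 1 apart.

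Markers of the bulge were measured on every array. All 22 genes of a bulge stem cell list were well above background on all 6 arrays. So were 15515 of the 18167 genes tested, and the count alone does not identify the cells. Krt15, the keratin of the bulge, had levels of 6.45, 7 and 6.96 on the normal diet and 6.70, 6.73 and 6.73 on the high fat diet. Cd34, the surface antigen used to mark bulge cells, had 5.37, 5.80 and 5.61 against 5.44, 5.36 and 5.51. In both genes the groups overlapped, and the differences were -0.08 ± 0.30 for Krt15 (95% interval -0.73 to 0.56) and -0.16 ± 0.27 for Cd34 (-0.74 to 0.42, SE, n = 3 against 3). These intervals hold no difference as large as 1 in either direction. The sign of the Krt15 value was not stable, being 0.01 without normal diet replicate 2. The second probe of Cd34 gave 0.04, on the other side of 0.

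The other regulators of the bulge named next also overlapped between the diets on the probe that stood for each. Sox9, which specifies these cells, had levels of 5.02, 5.98 and 5.40 against 5.46, 5.09 and 5.41, a difference of -0.15 ± 0.36 that was 0.11 without normal diet replicate 2. The second probe of Sox9, a dimmer one, gave -0.35, lower without overlap. Lhx2, a guardian of stem cell identity, differed by -0.24 ± 0.26, and Lgr5, the Wnt-linked receptor of the lower bulge and hair germ, by -0.38 ± 0.36. Nfatc1, a brake on the cell cycle of bulge cells, differed by -0.43 ± 0.32 and Foxc1, which acts with it in quiescence, by -0.50 ± 0.40. The matrix genes Col17a1, the hemidesmosomal collagen that anchors these cells, and Postn lay slightly on the other side, at 0.15 ± 0.24 and 0.28 ± 0.25. Of the 22 genes, 15 were below 0 and 7 above, with a median of -0.11 against -0.05 for all genes tested, and 0 reached an unadjusted p of 0.05 in limma's test. The groups of 1 member did not overlap, with the high fat diet higher, beside 3.64% of all genes. It was Bmp6, a quiescence ligand, with levels of -2.06, -3.07 and -2.19 on the normal and -0.48, -2.02 and -0.65 on the high fat diet (1.39 ± 0.94, limma adjusted p = 1).

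Lists of other cell types were read next, as fewer cells of a type and less RNA per cell cannot be told apart in such samples. Markers of other cells were measured as well: 9 of 14 fibroblast genes, 8 of 12 macrophage and Langerhans genes and 10 of 11 sebocyte genes were well above background on all 6 arrays. Of the endothelial list 6 of 10 genes were measured and all 6 were above 0, with a median of 0.30, while the defining genes Cdh5 and Kdr were above background on 0 of the 6 arrays. The summed linear signal of that list ran from 0.333 to 0.499 on the normal and from 0.405 to 0.772 on the high fat diet. Of the macrophage and Langerhans list 9 of 11 were below 0 (median -0.13, sums 142 to 189 and 145 to 178). H2-Ab1, an MHC class II chain of antigen-presenting cells, had -0.91, -0.58 and 1.23 against -1.91, -1.94 and -1.10, without overlap (-1.56 ± 0.83, limma adjusted p = 1), and its 3 further probes gave -1.54, -1.41 and -0.58.

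Of the sebocyte list 8 of 10 were above 0 (median 0.47, but 0.02 without normal diet replicate 2), with sums of 14.1 to 22.9 on the normal and 11.1 to 37.7 on the high fat diet. Its member Awat1, a wax synthase of sebocytes, was at -4.60, -4.40 and -4 against -2, -3.81 and -1.6 (1.86 ± 0.71, limma adjusted p = 1). The fibroblast list had 8 of 11 below 0 (median -0.19), with Dcn above background on 0 arrays. In each of these lists the sums of the 2 diets overlapped. The remaining lists had medians of -0.24 for Schwann cells, -0.22 for melanocytes, -0.06 for muscle, -0.04 for T cells, -0.03 for mast cells, 0.03 for red blood cells, 0.07 for adipocytes and 0.28 for dermal papilla, the last with 4 of 11 genes measured.

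**Figure D1:**
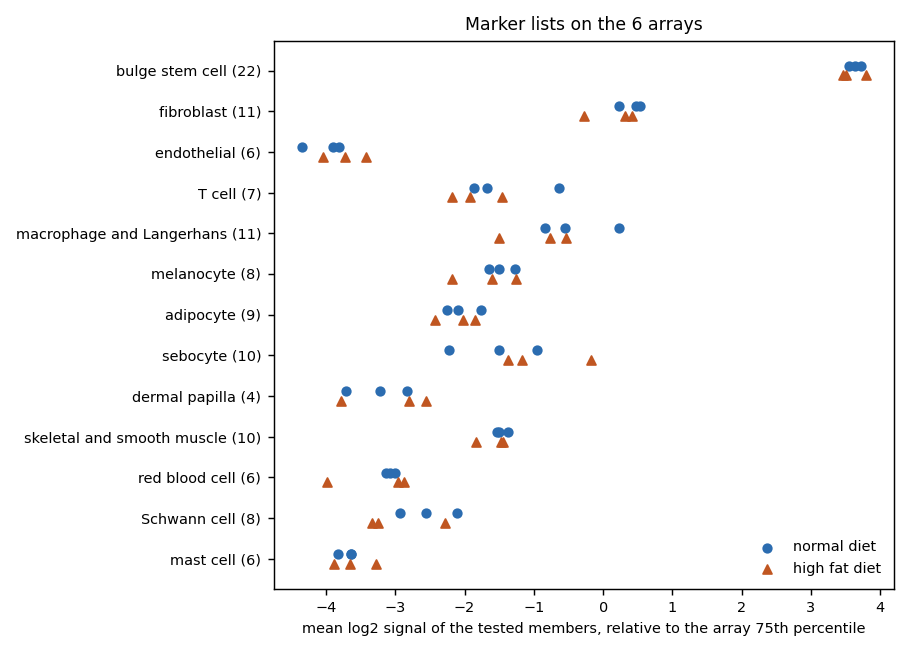
Mean log2 signal of the measured members of the bulge list and of 12 lists of other cell types on each of the 6 arrays, relative to the 75th percentile of the array (x axis), for normal diet (circles) and high fat diet (triangles), with the number of members in brackets. Within each list the arrays of the 2 diets are to be compared, and for the bulge list they overlap.

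The genes with the smallest p, 12 in each direction, are described next. Ccnj, a cyclin J gene, had levels of -5.31, -5.82 and -5.25 on the normal diet and 1.02, -0.20 and 0.77 on the high fat diet. All 3 high fat diet arrays lay far above the 3 normal diet arrays, 2 of which were well above background (6 ± 0.85, limma adjusted p = 0.165).

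Among the further genes with higher signal were 3 that were not well above background on any normal diet array. For such a gene the fold is a bound, which sets the mean of the bright group against the detection floor of the dim arrays, or against the signal of the probe there if that was higher. Rufy4, linked to autophagy, was at least 19.6-fold higher on the high fat diet. Ppp1r3d, a subunit that directs protein phosphatase 1 to glycogen, was at -8.09, -7.88 and -7.86 against -2, -2.08 and -2.36 and so at least 13.7-fold higher. Ppp1r3d was the only call of a fit restricted to the 6 arrays (limma adjusted p = 0.00735), against 0.465 in the fit over 15 telogen arrays. Pfkfb4, a bifunctional enzyme that sets the level of the glycolytic activator fructose 2,6-bisphosphate, was at least 8.8-fold higher, although its high fat diet arrays spread from -4.26 to -1.05. Its second probe, which did not pass the filter, stood at 0.96 with overlapping groups. That probe was well above background on 0 normal diet arrays and 1 high fat diet array, and the bound rests on 1 probe.

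Bag2, a co-chaperone of Hsp70, was measured well on all 6 arrays, at -3.25, -1.65 and -3.05 against 1.09, 1.09 and 0.21 (3.44 ± 0.73, limma adjusted p = 0.544). Klf8, a Krüppel-like transcription factor, was at -5.09, -3.90 and -4.24 against -0.69, -0.51 and 0.69 (4.25 ± 0.95), but its second probe gave -0.67. Tnrc6a, a scaffold of microRNA silencing complexes, was at -0.89, -1.73 and -1.77 against -0.22, 1.08 and 0.95 (2.07 ± 0.46), with 0.91 on its second probe. Cdc14a, a phosphatase of the cell cycle, stood at 3.05 ± 0.69 but at 0.19 on its second probe. The remaining genes of this side were Asb3 (2.91 ± 0.55), Tmco2 (3.30 ± 0.67), Ccdc85a (3.43 ± 0.76) and Dnaaf4 (5.18 ± 1.15), each with 1 kept probe. Dnaaf4 was well above background on 1 of 3 normal diet arrays, and its second probe, which did not pass the filter, stood at 2.82. The second probe of Tmco2 was not well above background on any of the 6 arrays.

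On the lower side, Tspan2, a tetraspanin, was at -1.28, -0.31 and 0.00 against -3.81, -3 and -4.85 (-3.35 ± 0.54, limma adjusted p = 0.257). Eya2, a transcriptional co-activator and phosphatase of the Eyes absent family, was at 3.65, 4.07 and 3.51 against 2.10, 1.23 and 2.35. The groups stood apart by over 1 on the log2 scale, and both probes of Eya2 showed it (-1.85 ± 0.37 and -2.06 on the other probe, limma adjusted p = 0.517). Exosc3, a core subunit of the RNA exosome, also had 2 probes on one side, with 3.91, 4.22 and 4.63 against 3.21, 3.35 and 2.33 (-1.29 ± 0.32, and -1.21 on the other). Mettl26 was at 1.17, 1.30 and 1.94 against -1.14, -0.76 and -1.88 (-2.73 ± 0.53).

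Smim5 was not well above background on any high fat diet array and was at least 6.03-fold lower. Bbs12, a chaperonin-like protein needed to build the BBSome of cilia, was at -4.03 ± 0.98, and Wdr45b, an autophagy protein, at -2.74 ± 0.61. Dusp28 was at -2.73 ± 0.60. Mccc2, a subunit of the leucine-degrading methylcrotonoyl-CoA carboxylase, was at -2.95 ± 0.68 with 0.27 on its second probe, and Rae1, an mRNA export factor, at -1.35 ± 0.33 with -0.61. The limma adjusted p of these 24 genes lay between 0.165 and 0.672.

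**Figure D2:**
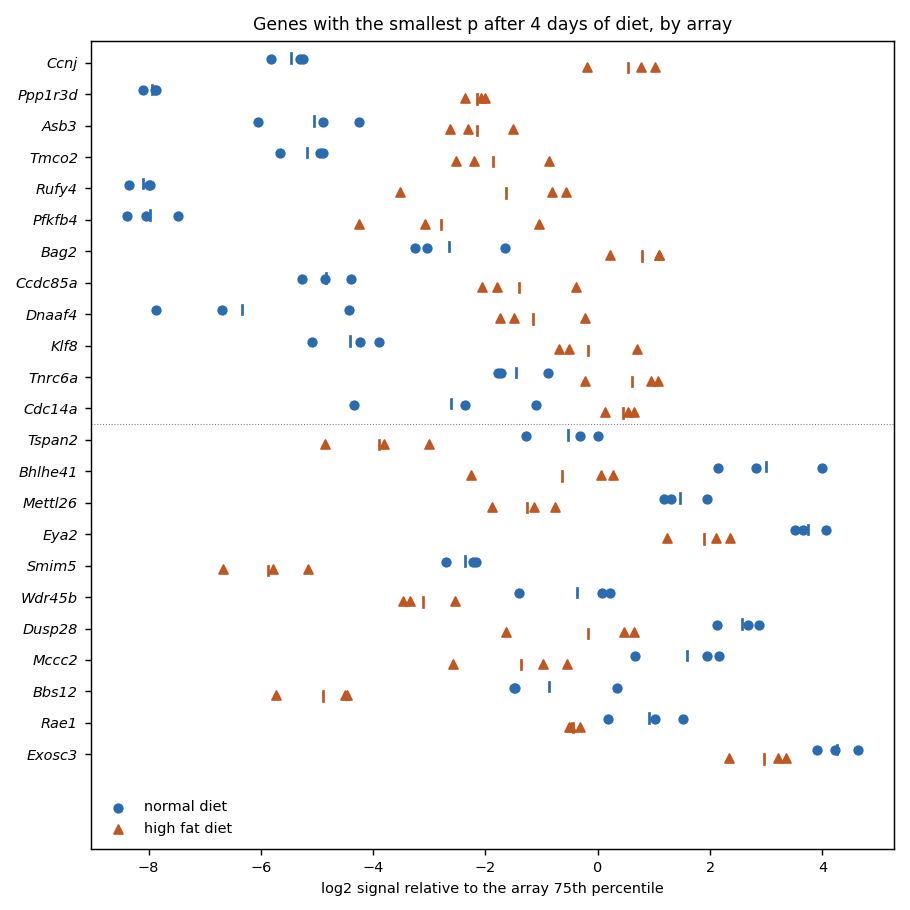
Log2 signal relative to the 75th percentile of the array (x axis) of 23 of the 24 genes with the smallest p, higher (above the dotted line) or lower on the high fat diet, on the 3 normal diet (circles) and 3 high fat diet (triangles) arrays, with short lines at the group means. The groups stand apart for each gene, which the choice by p favours, and levels of different genes are not comparable.

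There were 603 genes well above background on all 3 normal diet and 0 high fat diet arrays and 9 with the reverse, beside the higher floor of the high fat diet arrays given above. With floors this far apart, a gene measured only on the high fat diet had to differ by more to enter, so the counts cannot be set against each other. A bound of 2-fold or more was reached by 37 of the 603 and by 9 of the 9. What part of either count goes with diet was not tested. Il17rb, a receptor chain for interleukin-25, was among the 9, at least 8.96-fold higher, and its second probe, which did not pass the filter, stood at 0.25. Hs3st3a1, a heparan sulfate sulfotransferase, was at least 9.18-fold higher and Psors1c2, a gene of the differentiating epidermis, at least 5.19-fold lower.

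The circadian clock held 1 of those 24 genes. In the clock, Arntl (BMAL1) and Clock drive genes through E-boxes, the Per, Cry and Bhlhe40/41 proteins hold that drive back, and the receptors Nr1d1 and Nr1d2 (REV-ERB) repress Arntl through elements built on the half-site bound by ROR receptors. Promoter windows of 4 clock genes are printed to show those letters: Bhlhe41 stands among the 24 genes, and Ciart, Nr1d2 and Arntl were chosen after their values were seen. They were taken from RefSeq on GRCm38.p6 and run 5′ to 3′ along the gene, from 250 bases before its start to 50 after it. Capitals mark CACGTG, the E-box, and AGGTCA, the half-site, searched on both strands.
Bhlhe41, chr6:145865371-145865670, minus strand: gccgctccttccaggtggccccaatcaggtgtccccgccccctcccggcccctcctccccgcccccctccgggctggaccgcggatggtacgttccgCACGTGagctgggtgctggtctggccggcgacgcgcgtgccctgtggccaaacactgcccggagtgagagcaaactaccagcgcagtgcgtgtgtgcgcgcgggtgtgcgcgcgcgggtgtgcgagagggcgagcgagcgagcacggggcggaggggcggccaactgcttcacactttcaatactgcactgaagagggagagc
Ciart, chr3:95882179-95882478, minus strand: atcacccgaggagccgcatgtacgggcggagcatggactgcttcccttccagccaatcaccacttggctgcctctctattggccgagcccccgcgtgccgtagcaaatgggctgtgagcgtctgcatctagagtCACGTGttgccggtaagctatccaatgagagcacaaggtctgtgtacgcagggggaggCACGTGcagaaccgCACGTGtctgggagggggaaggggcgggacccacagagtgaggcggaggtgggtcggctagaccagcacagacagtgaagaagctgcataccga
Nr1d2, chr14:18239057-18239356, minus strand: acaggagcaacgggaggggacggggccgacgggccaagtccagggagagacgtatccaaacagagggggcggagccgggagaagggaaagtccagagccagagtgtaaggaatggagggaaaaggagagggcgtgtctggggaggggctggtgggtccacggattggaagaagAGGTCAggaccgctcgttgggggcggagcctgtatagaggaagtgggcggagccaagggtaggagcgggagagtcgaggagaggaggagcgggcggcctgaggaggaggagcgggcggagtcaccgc
Arntl, the second of 2 windows, chr7:113207261-113207560, plus strand: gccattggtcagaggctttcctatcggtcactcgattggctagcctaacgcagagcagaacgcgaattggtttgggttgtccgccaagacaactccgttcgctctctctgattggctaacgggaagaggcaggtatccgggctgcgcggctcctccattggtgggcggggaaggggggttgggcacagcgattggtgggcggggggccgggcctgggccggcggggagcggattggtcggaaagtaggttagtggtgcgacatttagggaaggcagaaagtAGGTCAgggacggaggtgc

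The window of Ciart holds 3 E-boxes and that of Bhlhe41 1, where 7.15% of all 32851 windows hold any, and 16.3% hold the half-site. Of the 18 clock genes with a window, 5 held an E-box (Ciart, Bhlhe41, Cry1, Per1 and Tef) and 5 a half-site (Clock, Arntl, Per1, Nfil3 and Nr1d2). These 18 genes had 26 windows, and a gene was counted if any of its windows held a match. The shares above are of windows and so cannot be set against these counts of genes. A match is a description of the letters and no binding was measured.

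Bhlhe41 had levels of 2.14, 4.00 and 2.82 on the normal diet and 0.27, 0.06 and -2.25 on the high fat diet. The lowest normal diet array lay above the highest high fat diet array, by over 1 on the log2 scale (-3.63 ± 0.66, limma adjusted p = 0.465), and the second probe of the gene gave -0.96. Nr1d1, with 2.14, 2.87 and 2.31 against 2.15, -1.07 and 0.93, overlapped through high fat diet replicate 1 (-1.77 ± 0.66). Its paralogue Nr1d2 did not, with 2.45, 3.07 and 2.72 against 1.95, 2.09 and 2.21 (-0.66 ± 0.36), and its second probe gave -1.10. Dbp, an output factor driven by E-boxes, overlapped at 4.74, 5.56 and 5.13 against 5.02, 3.46 and 4.61 (-0.78 ± 0.47, second probe -0.82). Ciart, a repressor in the same loop, overlapped too, at 0.44, -2.68 and 0.43 against -0.41, -3.76 and -4.75 (-2.37 ± 1.41, second probe -0.54).

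Arntl, which REV-ERB represses, lay on the other side. Its levels were -5.06, -5.81 and -5.54 against -2.99, -1.34 and 2.57, above background on 2 of 3 normal diet arrays (4.88 ± 1.63), and its 2 further probes gave 1.26 and 2.47. Npas2, the partner of Arntl in place of Clock, was lower without overlap (-1.38), and Csnk1d, a kinase that marks Per proteins for decay, was higher without overlap at 0.45 ± 0.27, with 0.43 and -0.34 on its further probes. The core Per and Cry genes overlapped between the diets, as did Nfil3. Of the 23 clock genes, 3 reached an unadjusted p of 0.05 in limma's test (Bhlhe41, Arntl and Nr1d1), beside 4.47% of all genes. Over the 23, 14 were below 0 (55.1% of all genes were) and 9 above, with a median of -0.05, equal to that of all genes tested. That median was 0.04 with a percentile over the probes detected on all arrays. After 3 months of diet the values were -1.04 for Bhlhe41, -0.22 for Nr1d1 and -0.74 for Arntl. In 4-day anagen they were 0.80, -0.57 and 1.66.

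Of 23 genes of cholesterol synthesis and its control, 17 were below 0 (55.1% of all genes were), with a median of -0.33. This median ranged from -0.60 to -0.24 over 26 alternative settings and replicates left out, and it was 0.13 at 3 months and 0.02 in 4-day anagen. The mean level of the list overlapped between the diets, at 1.70, 0.76 and 1.12 on the normal and 1.27, 0.62 and 0.20 on the high fat diet. Fdft1, squalene synthase, had levels of 4.90, 3.96 and 4.19 on the normal diet and 2.99, 2.76 and 0.86 on the high fat diet, without overlap (-2.15 ± 0.56, limma adjusted p = 0.672), but its second probe gave -0.31.

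The next enzymes of the pathway overlapped between the diets. Sqle, squalene epoxidase, was at 1.28, 0.48 and 0.16 against 0.46, -0.98 and -2.77 (-1.73 ± 0.72). Sc5d, a sterol desaturase late in the pathway, was at 2.01, 1.17 and -0.36 against 0.24, -1.44 and -2.03 (-2.02 ± 1.03), and Hsd17b7 at -1.99 ± 1.23 with -0.34 on its second probe. In Fdft1, Sqle, Sc5d and Hsd17b7 alike, high fat diet replicate 1 was the highest of its group. Pmvk, the phosphomevalonate kinase, was at -0.92 ± 0.43, with -0.61 on its second probe. Of the list 3 genes reached an unadjusted p of 0.05, all with lower means, beside 2.33% of all genes.

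The other lipid genes had no common side. Srebf1, the regulator of fatty acid synthesis, was at -0.98 ± 0.53, and the 19 genes of fatty acid synthesis had a median of 0.06 (-0.09 to 0.22 over the alternatives). Lipid uptake and droplet genes had a median of -0.41 over 25 genes, but 0.01 without normal diet replicate 2. Of the list 15 were below 0, beside 55.1% of all genes. Its members Slc27a1 and Slc27a3, fatty acid transporters, were at -1.15 ± 0.44 and -0.89 ± 0.45, G0s2, an inhibitor of the lipase ATGL, at -1.62 ± 0.65, and Fabp5, the fatty acid carrier of keratinocytes, at 0.89 ± 0.45. G0s2 was again below 0 at 3 months, at -1.17, but at 0.37 in 4-day anagen.

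The 26 PPAR targets and oxidation enzymes had a median of 0.03 (-0.14 to 0.12 over the alternatives), 14 above and 12 below 0. Acaa2, a thiolase of mitochondrial oxidation, was tightly measured at 4.61, 4.72 and 4.73 against 4.33, 3.95 and 4.10 (-0.56 ± 0.23, limma adjusted p = 1). Ppargc1a, the co-activator PGC-1alpha, was at -6.11, -1.90 and -6.45 against -0.89, -0.77 and 0.04. It was above background on 1 of 3 normal diet arrays, and its difference of 4.28 ± 1.93 stood beside 3.12 on its second probe and -1.69 at 3 months. Etfdh, which passes electrons from fatty acid oxidation to ubiquinone, overlapped (1.45 ± 0.79).

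Of 34 genes of oxidative phosphorylation, 29 were below 0 with a median of -0.17, from -0.31 to -0.08 over the 26 alternatives. The groups of 7 did not overlap, all lower on the high fat diet, beside 6.15% of all genes. The mean level of the list overlapped, at 3.36, 3.67 and 3.64 on the normal diet and 3.38, 3.27 and 3.39 on the high fat diet. Normal diet replicate 1 lay among the high fat diet arrays. Ndufv1, a flavoprotein subunit of complex I, was at 2.40, 3.06 and 2.41 against 1.58, 2.18 and 2.24 (-0.63 ± 0.30), and its second probe gave -0.18. Ndufs8, of the same complex, was at 3.55, 4.41 and 4.2 against 3.39, 3.43 and 3.07 (-0.75 ± 0.46), and Atp5o of the ATP synthase at -0.46 ± 0.29 with -0.35 on its second probe. Of the 34, 0 reached an unadjusted p of 0.05 in limma's test. Their median was -0.05 at 3 months and -0.09 in 4-day anagen, against -0.04 and -0.09 for all genes.

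Glycolysis genes had 15 of 24 below 0, beside 55.1% of all genes, and a median of -0.08. Ldha, lactate dehydrogenase A, was at 4.66, 4.72 and 4.54 against 4.19, 4.28 and 4.22, narrowly apart in groups of little spread (-0.41 ± 0.23, second probe -0.31). Tpi1, triosephosphate isomerase, overlapped at -0.95 ± 0.39, with -0.41 and -0.90 on its further probes. The ribosomal proteins, with 31 of 38 below 0 but a median of only -0.07, turned to 0.04 without normal diet replicate 2 and to 0.04 without replicate 3.

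Of 27 genes of the oxidative stress response, 19 were below 0 with a median of -0.19 (-0.34 to -0.08 over the alternatives). The mean level of the list was 2.07, 2.33 and 2.39 on the normal diet and 2.13, 2.07 and 2.14 on the high fat diet. Normal diet replicate 1 was thus no higher than the high fat diet arrays. Hmox1, heme oxygenase 1, was at -0.49, -0.06 and 0.89 against -1.10, -0.87 and -1.41, without overlap (-1.24 ± 0.57). Nqo1, a quinone reductase and NRF2 target, was at 4.01, 4.01 and 3.46 against 2.82, 2.87 and 2.88 (-0.97 ± 0.49). The NRF2 target Gclc, which begins glutathione synthesis, stood on the other side at 0.66, 0.98 and -0.07 against 1.52, 2.48 and 2.32 (1.58 ± 0.55, limma adjusted p = 0.981). Osgin1, an oxidative stress induced growth inhibitor, was at -4.35, -1.53 and -4.37 against -4.69, -4.82 and -5.25 (-1.50 ± 0.79). Only normal diet replicate 2 lay far from the high fat diet arrays, which were near their detection floor, with 2 of 3 well above background. After 3 months Osgin1 was at 3.15, a difference between durations with an unadjusted p of 0.00117 and an adjusted p of 0.922 in limma's test.

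Interleukin-1 and NF-kappaB signalling had the highest median of the 30 pathway lists, 0.28 over 29 genes (0.04 to 0.47 over the alternatives), with 16 above and 13 below 0. Nfkbiz, the nuclear IkappaB-zeta that NF-kappaB induces, was at -3.70, -1.62 and -1.27 on the normal diet and 1.13, 0.07 and 0.13 on the high fat diet, without overlap. Its 2 probes gave 2.64 ± 0.64 and 2.52 (limma adjusted p = 0.672), but the difference was 0.61 after 3 months and -3.97 in 4-day anagen. Tradd, an adaptor of TNF receptor 1, was at -2.05, -0.67 and -2.46 against 0.33, 0.21 and -0.07 (1.89 ± 0.47), and stood at -1.06 after 3 months. That difference between durations had an unadjusted p of 0.000809 and a limma adjusted p of 0.922.

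Casp1, the protease that matures interleukin-1beta, overlapped at 0.29, -2.50 and -4.54 against -0.41, -0.51 and 1.26 (2.36 ± 0.99). These 3 genes were the ones of the list at an unadjusted p below 0.05, all with higher means, beside 2.14% of all genes. Nfkb2 lay on the other side, at -0.90 ± 0.49 and -0.91 on its second probe. The list median was 0.10 at 3 months and -0.07 in 4-day anagen. The list of chemokines and cytokines had a median of -0.04 over 14 genes, 7 above and 7 below 0. Of the cytokines, Tslp, an alarmin of keratinocytes, was at -0.80, -1.84 and -2.08 against -4.80, -5.03 and -5.09, lower without overlap and above background on 1 high fat diet array (-3.40 ± 1.29, limma adjusted p = 1). Interferon genes had a median of -0.14 over 21, of which 14 were below 0, and 0.04 without normal diet replicate 3. Ifit1 was at least 4.57-fold higher, and Ddx58, the RNA sensor RIG-I, was at 3.26 ± 1.18 on 1 probe but at -0.05 and -0.14 on the others. Usp18 and Rsad2 lay on the other side, at -1.08 ± 0.66 and -1.08 ± 0.87, with overlapping groups.

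**Figure D3:**
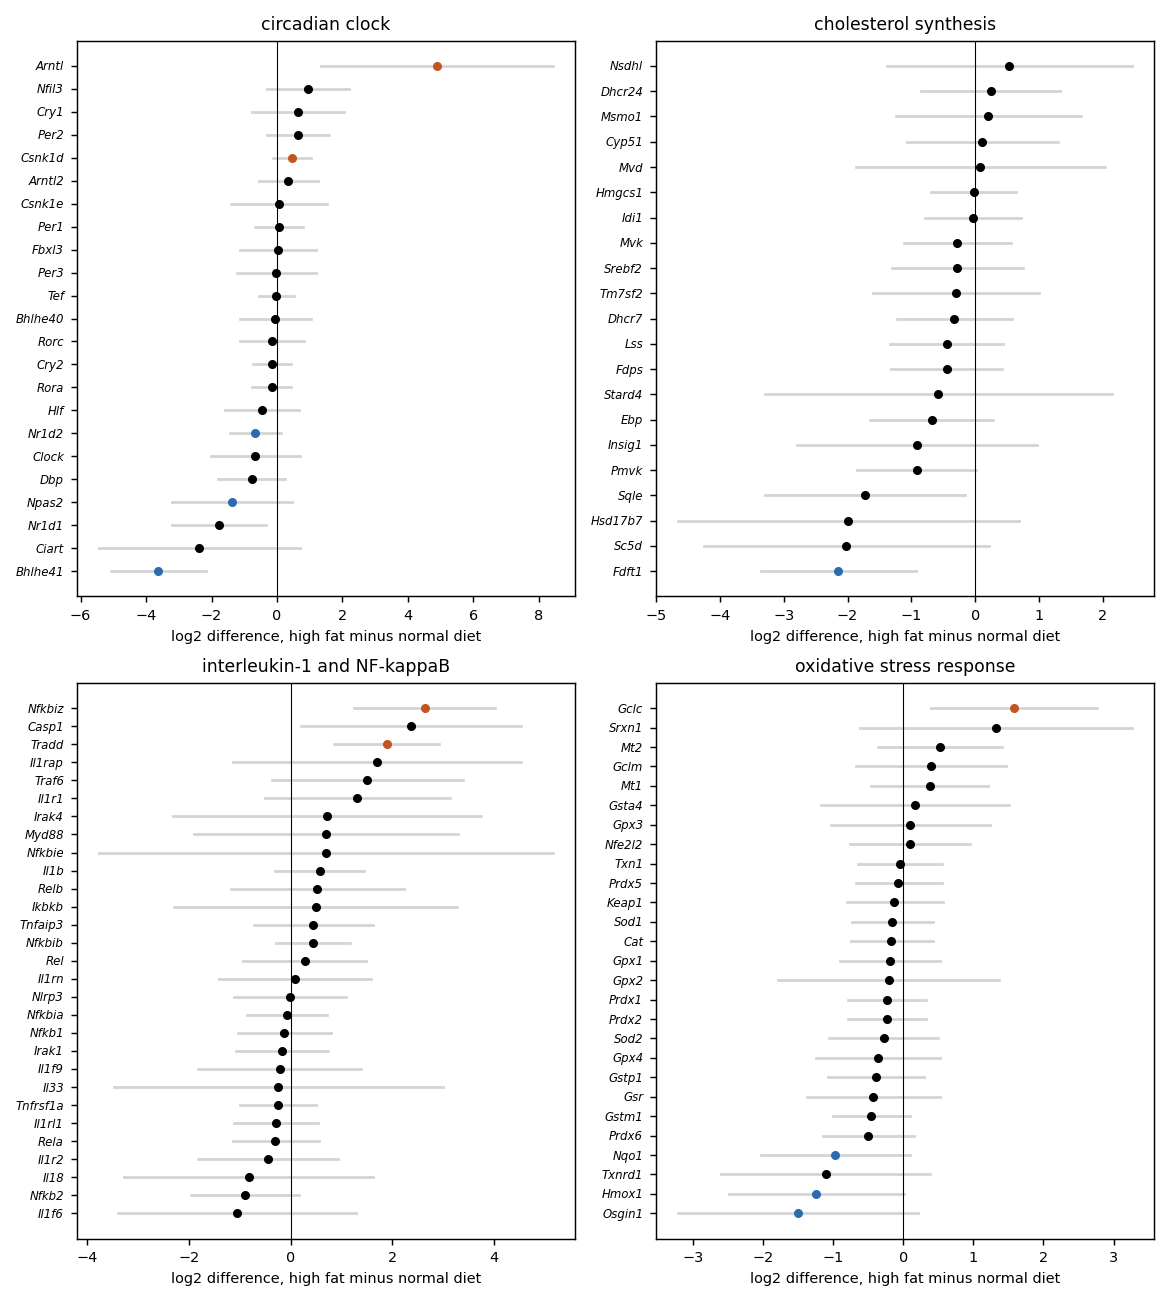
Log2 difference of high fat minus normal diet (x axis) for measured members of 4 gene groups, 2 of cholesterol synthesis left out, with the 95% interval of the limma fit (grey). Orange and blue points are genes whose 3 high fat diet arrays lie wholly above or below the 3 normal diet arrays and black points overlap, and most intervals hold 0.

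The remaining groups lay close to all genes or moved with single arrays. Of the 30 group medians, 21 took the opposite sign under at least 1 of the 26 alternatives. The 9 that did not were those of the bulge genes, basement membrane and adhesion, Wnt signalling, cholesterol synthesis, the oxidative stress response, interleukin-1 and NF-kappaB, immediate early genes, glycolysis and oxidative phosphorylation. Among these, the medians of the bulge, basement membrane and glycolysis genes came to 0 after rounding under some alternative. The median of all genes itself ran from -0.20 to 0.04, so a kept sign alone does not show a stable shift. Basement membrane and adhesion genes had 19 of 25 above 0 with a median of 0.15, and 3 were higher without overlap, Lamc1, Itga3 and Dst, beside 3.64% of all genes. Lamc1, the laminin gamma-1 chain, was at -0.48, 1.47 and 1.98 against 2.23, 2.23 and 2.73 (1.41 ± 0.60), and its second probe gave 0.45. Mitosis genes had a median of -0.44 but 0.03 without normal diet replicate 1 and 0.21 without high fat diet replicate 2, and protein kinase C genes one of -0.25 but 0.32 without normal diet replicate 1. In the latter group Plcg1, a phospholipase that generates the lipid activator of the kinases, was at 1.51, 0.38 and 1.29 against -0.74, 0.36 and 0.37 (-1.06 ± 0.44), and Prkcb at -1.99 ± 0.83 with 0.22 on its second probe.

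Wnt genes had 19 of 26 below 0 (median -0.19) and BMP and TGF-beta genes 17 of 28 above 0 (median 0.10, but -0.05 when arrays were scaled by their median). In both, 0 genes reached an unadjusted p of 0.05. Hedgehog genes had a median of 0.23 that was -0.09 without normal diet replicate 2, and epidermal differentiation genes one of 0.05 that was -0.26 without that array, -0.24 without high fat diet replicate 1 and -0.10 when arrays were scaled by their median. Of the latter, Ovol1, a transcription factor of differentiating keratinocytes, was at -0.10, -5.50 and -1.65 against 1.04, 0.15 and 0.00 (2.81 ± 1.08). In the upper follicle list Plet1, a marker of the isthmus, was at 3.00, 3.70 and 3.61 against 4.38, 4.14 and 4.37 (0.86 ± 0.40, second probe 0.23). In the unfolded protein response, Atf6, an ER stress sensor, was at 2.47 ± 0.92 and Eif2ak3, the kinase PERK, at -1.45 ± 0.75.

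**Figure D4:**
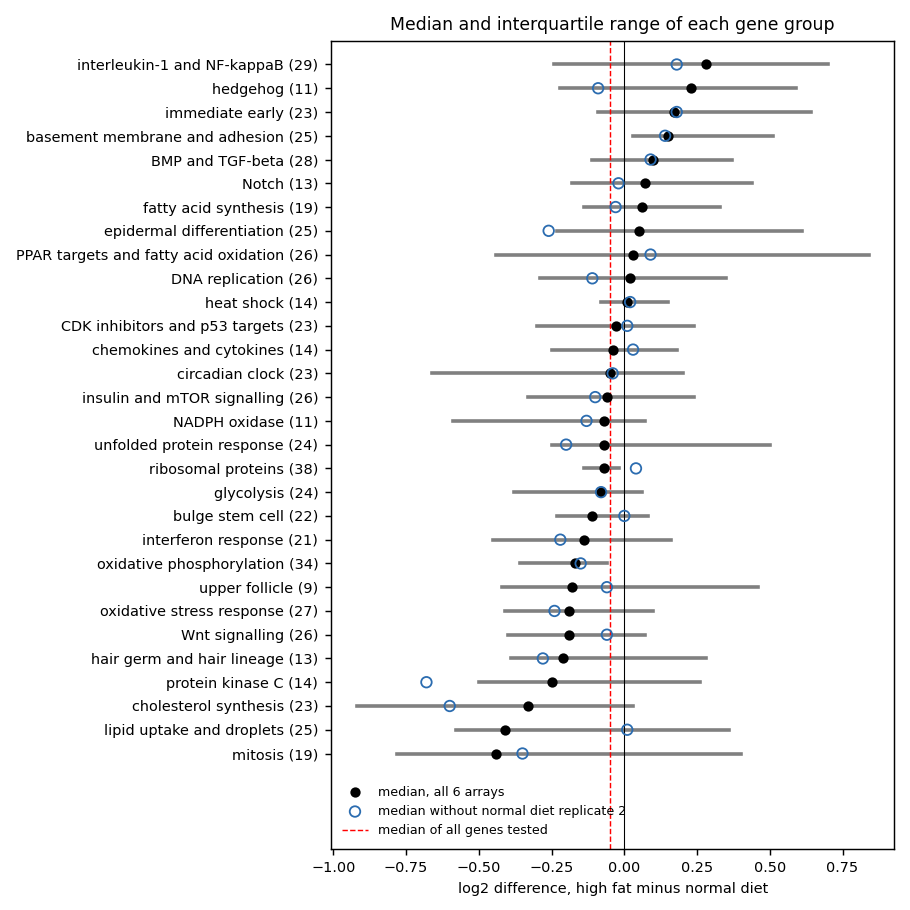
Median (black points) and interquartile range (grey bars) of the log2 difference, high fat minus normal diet (x axis), for 30 gene groups, with the number of measured members in brackets and, as open circles, the median without normal diet replicate 2. The dashed line is the median of all genes tested, -0.05, and the medians run from -0.44 for mitosis to 0.28 for interleukin-1 and NF-kappaB signalling.

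The 4-day differences were set beside the diet contrast at 3 months and in anagen for all genes. Across 14078 genes well above background on all 12 arrays, the differences at 4 days and at 3 months, which share no arrays, had a Pearson correlation of 0.01, and across 15068 genes those of telogen and anagen at 4 days had one of -0.02. Genes are not independent replicates. Of the 24 genes with the smallest p, 11 had the same sign at 3 months. Of the 19 among them that were well above background on both anagen arrays, 10 had the same sign there, with 1 array per diet and no replicate check. For all genes the shares of equal sign were 52% and 50.4%. For the 812 genes at an unadjusted p below 0.05 they were 50.6% (411 genes) and 51%.

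Among single genes, Tnrc6a was at 2.07 in telogen, 2.23 in anagen and -0.14 at 3 months, and Mettl26 at -2.73, -3.18 and 0.74. Other genes turned in anagen, such as Tmco2, at 3.30 in telogen and -2.03 in anagen, and Tspan2, at -3.35 and 1.21. Dcaf5, a substrate receptor of Cul4 ubiquitin ligases and one of the genes of largest difference, was at 3.72 ± 0.84 in telogen and 3.10 in anagen, and at -0.86 at 3 months. The difference between the 4-day and the 3-month effect was tested for each gene as an interaction. At 3 months itself 0 genes (0%) were called and 700 (3.85%) had an unadjusted p below 0.05. The interaction was called for 0 of 18167 genes (0%; smallest limma adjusted p 0.388), and 677 genes (3.73%) had an unadjusted p below 0.05. The 95% interval of this difference reached 1.58 to either side for the median gene, and a difference between the durations smaller than that could not be resolved.

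**Figure D5:**
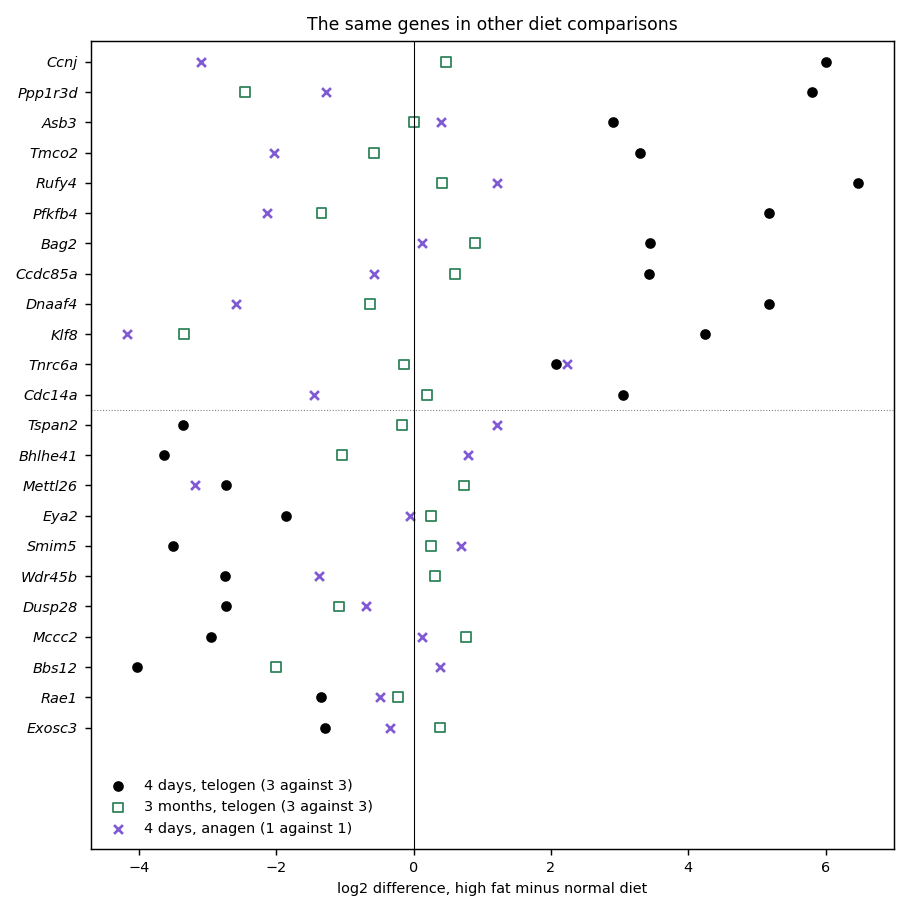
Log2 difference, high fat minus normal diet (x axis), of 23 of the 24 genes with the smallest p at 4 days in telogen (points), beside the same genes after 3 months in telogen (squares) and after 4 days in anagen (crosses, 1 array per diet, some of them not well above background). The 4-day telogen values were used to choose the genes, and the squares and crosses of either set lie on both sides of 0.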

How the data were processed

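Total RNA of hair follicle stem cells was column-purified and Cy3-labelled by the authors, per the labels' protocols, and each sample was hybridised to 1 Agilent mouse array. Per the file headers, the deposited scanner files hold spot intensities from Feature Extraction 10.7.1.1, background-subtracted and detrended, with no scaling between arrays. The deposited series table holds a linear signal per probe that matched those intensities divided by the 75th percentile of the array (r = 1), with no centring of genes and the same direction, and served as an alternative; the medians of its columns were 0.126 to 0.128 for the normal and 0.128 to 0.152 for the high fat diet. Where the files give a build it is not that of the promoter table, so no coordinates of probes are given.

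Intensities were averaged per probe and turned to log2 values, from which the 75th percentile of the array was subtracted. Of 56605 probes, 32994 matched 1 RefSeq symbol through their accession. Probes marked as well above background on every array of either diet were kept (41181), and the brightest kept probe stood for a gene. One limma fit (limma 3.58.1, R 4.3.3, data.table in version 1.17.8) covered the 15 telogen arrays of 5 groups, two-sided, with Benjamini-Hochberg adjustment over 18167 genes. It was tested on simulated data. Slide rows were read from the array positions. Alternatives were normexp background correction (offset 50), quantile or median scaling, a percentile over detected probes, no or a stricter filter, the series table, the mean over probes or every probe, trend and robust, array weights, other sets of arrays, a replicate block, a threshold of 0.1 and leaving out each array, with the filter redone or with the probes held. The text gives values without an array with the probes held. Lists were summarised by counts and medians. Genes named are the 12 per direction with the smallest p, the 8 of largest difference, the 5 of largest bound, up to 4 of each of 30 pathway lists with the smallest p, members of 12 marker lists, and the bulge genes, without predicted or clone names, and the text uses some of them. A few of these genes, counted in the totals, are not reported here. Members of small counts were named after their values were seen. Members and lists were chosen with earlier results of these data known.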

Additional observations from a re-analysis of the deposited data

How the results depend on the processing

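The count of genes called by limma in the 4-day comparison was 0 under each alternative except a fit on only the 6 arrays compared, which called 1 (Ppp1r3d), and the fits without 1 replicate, which called 0 to 3. Those were 1 without normal diet replicate 3 (Cep295), 2 without high fat diet replicate 1 (Bmerb1 and Tmem198) and 3 without high fat diet replicate 2 (4930556A17Rik and Gm42098 among them). For the difference between durations the count was 0 except for 1 with scaling by the median (Ddx28), 1 with only the arrays compared and 1 with the replicate block (Ppp1r3d in both), and 0 to 1 without 1 replicate (Bmerb1 without high fat diet replicate 1, Gm42098 without high fat diet replicate 2). Leaving out a replicate redid the filter and the choice of probe. With the genes and probes held, an alternative chosen after seeing the data, the 4-day count was 0 except for 1 without normal diet replicate 3 (Cep295), and that between durations was 0 for each replicate. The cause of the other calls was not tested. Samples sharing a replicate number deviated together with correlations of 0.05, 0.03 and 0.01, so the numbers do not pair them, and the block called 0 genes in the 4-day comparison. Scaling by the median moved the median of all genes from -0.05 to -0.20. Some alternatives cannot turn a difference: the threshold of 0.1, trend and robust, the fit on only the 6 arrays and the replicate block. Their values, counted in what follows, kept their direction by construction. Of 2272 values of 88 genes recomputed, 2264 kept their direction and side of the threshold, 1 passed it (Ppp1r3d, above) and 7 turned, in 4 genes. These were Krt15 (0 with a percentile over detected probes, and -0.26 to 0.01 without 1 replicate), Sox9 (-0.37 to 0.11 without 1 replicate), Il17rb (-0.42 to 4.31) and Ddx58 (-0.02 to 4.47). The last 2 turned only where another probe came to stand for the gene, and ranged from 2.74 to 4.31 and from 2.61 to 4.47 with the probe held. In all, 5 of the 88 genes took another probe in at least 1 such fit. The higher detection floor of the high fat diet arrays limits what can be said of dim genes.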

Other observations

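Further gene groups had no gene past the threshold of limma's test. Immediate early genes, which respond quickly to growth signals, had 14 of 23 members above 0 and a median of 0.17 (0.02 to 0.32 over the alternatives), beside 0.13 after 3 months and 0.48 in 4-day anagen. Fos was at -1.6, -5.42 and -0.73 against 0.63, -1.83 and 0.03, with overlapping groups. Of the 23 CDK inhibitors and p53 targets 14 were below 0, beside 55.1% of all genes, and their median was -0.03. Without overlap 2 were lower, the stress sensors Gadd45a and Gadd45b, beside 6.15% of all genes. Gadd45a was at 1.27, 1.29 and 1.57 on the normal diet against 0.36, 0.49 and 0.11 on the high fat diet (-1.05 ± 0.92, limma adjusted p = 1), but at 2.63 after 3 months. Cdkn1b, the inhibitor p27, overlapped at -0.43 ± 0.35.

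In insulin and mTOR signalling (median -0.06 over 26 genes) 3 genes had groups that did not overlap, beside 9.79% of all genes, a share close to theirs. Mtor itself was at -0.41, -1.84 and -0.39 against 1.06, 0.45 and -0.05 (1.36 ± 0.73). Irs2, an insulin receptor substrate, was higher at 0.50 ± 0.51, and Grb10, an adaptor that restrains the insulin receptor, lower at -1.59 ± 0.98 on its 1 kept probe. A second Grb10 probe, which did not pass the filter, went the other way at 4.28 without overlap. It was well above background on 0 normal diet and 2 high fat diet arrays, so the side of Grb10 is not settled. In the NADPH oxidase group (median -0.07 over 11 genes) Noxa1, an activator of NOX1, was at -0.42, 1.15 and -0.51 against -0.56, -0.60 and -1.27 and Ncf4 at -2.73, -3.28 and -3.89 against -3.92, -4.05 and -4.17, both lower by narrow margins, beside 6.15% of all genes. Genes of DNA replication (median 0.02 over 26) and heat shock (0.01 over 14) had 0 members whose groups were apart.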
